A study of Mus musculus with 16 samples.

Results

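The genes described here are 5 genes of the IL-2 receptor and of signalling through the transcription factor STAT5: Il2ra, Il2rb, Cish, Pim1 and Prdm1. They were chosen by symbol, with earlier results of these data known, out of 8552 genes that the deposited table names among its 17850 rows. Each symbol was joined to its row of values through the authors' log2 fold change and standard error between Sin3A-deficient and Sin3A-sufficient Th17 cells. The table names a gene where that fold change is below 0, so being lower in deficient Th17 cells was a condition of choice. Those differences are therefore given as a description with no test. All 5 symbols were joined, and all 5 rows passed the filter on low values.

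Poly(A) RNA was sequenced from CD4 T cells, purified from C57BL/6J mice about 2 months old that carry 1 copy of Rosa26-CreERT2, a Cre recombinase that tamoxifen activates in whatever cell type makes it, and 2 floxed alleles of Sin3a, the gene of a corepressor scaffold that brings histone deacetylases to chromatin. Deficient Th17 cells spent 6 days in IL-7 with tamoxifen and then 3 days under conditions that drive Th17 differentiation, and sufficient Th17 cells had the same schedule without tamoxifen. Deficient IL-7 cells and sufficient IL-7 cells were taken after the 6 days in IL-7, with and without tamoxifen. The Th17 groups thus had 3 more days of culture, so time in culture and Th17 conditions cannot be told apart. Polarization below names the whole difference between these stages. Each of the 4 groups held 4 libraries, numbered alike in every group. In order of that number they are called replicates A, B, C and D, so that replicate A is D3TAM955, D3955, BASALTAM955 and BASAL955 in the labels. Every library carries the Cre and the floxed alleles, so the effect of the deletion and the effect of tamoxifen cannot be told apart in these groups. The labels give replicate C as female and replicates A, B and D as male in all 4 groups, so C comes from other animals than the rest, and sex cannot be told apart from that replicate. Beyond sex no label ties a number to a mouse or culture, so the p-values reflect how far these libraries vary, part of which may be technical.

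IL-2 binds a receptor of an alpha chain (CD25), a beta chain (CD122) and the common gamma chain, while IL-7 uses its own alpha chain with the same common gamma chain. Both receptors activate the kinases JAK1 and JAK3 and, through them, STAT5, which enters the nucleus and induces genes for survival, for growth and for feedback on the receptor itself. In CD4 T cells, STAT5 is known to raise CD25, to favour regulatory T cells and to restrain Th17 differentiation.

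Values are normalized counts, which are reads divided by the authors' size factor of the library, after restoring a lost decimal point. The point was placed so that the libraries of a group lay close, so their spread and the p-values may be understated. The libraries held 19753347 to 28605338 restored reads. Levels are given ± SD, and log2 changes ± SE on the log2(value + 1) scale. Sin3a itself stood at 1774 ± 49.8 normalized counts in deficient and 2106 ± 181 in sufficient Th17 cells. In IL-7 cells it was 2211 ± 98.2 in deficient and 2524 ± 249 in sufficient cells. The IL-7 difference missed the threshold (log2 change -0.19 ± 0.08, limma adjusted p = 0.181). The names deficient and sufficient stand for culture with and without tamoxifen, and the extent of the deletion was not tested. Markers of T cells, of which 5 of 8 had values, summed to 27784 to 31994 in deficient Th17, 47211 to 50830 in sufficient Th17, 50066 to 55048 in deficient IL-7 and 54476 to 61393 in sufficient IL-7 libraries. Th17 markers, with values for 4 of 6, summed to 11276 to 14555 in deficient and 27840 to 45817 in sufficient Th17 libraries, against 744 to 1681 in deficient and 1109 to 2655 in sufficient IL-7 libraries. B cell markers, with values for 5 of 9, summed to 64.2 to 189 in deficient and 150 to 345 in sufficient Th17 libraries, and to 173 to 255 in deficient and 390 to 1150 in sufficient IL-7 libraries. Cd68, the only 1 of 8 myeloid markers with a value, ran from 52.5 to 66.8 in deficient and 120 to 175 in sufficient Th17 libraries, and from 104 to 132 in deficient and 92.1 to 129 in sufficient IL-7 libraries. For NK cells and for erythroid cells and platelets no listed marker had a value. The table names 4 of 5 NK markers, without a settled value, and 0 of 4 erythroid and platelet markers. A marker without a value may still be expressed. Only named genes have values, so lower sums in deficient than in sufficient Th17 libraries were a condition of choice in every list. In bulk libraries such as these, fewer cells of a type and less RNA per cell cannot be told apart.

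The sufficient IL-7 library D stood apart from the other 3 of its group. It held 2.22 times the mean of the other 3 for Il2ra, 2.03 times for Il2rb and 1.77 times for Cish, but 0.888 times for Pim1 and 1.10 times for Prdm1. It also had the highest sum of B cell markers in its group, 1150 against 390, 452 and 730, and of activation markers (4 of 6 with values), 4042 against 1294, 1804 and 1625. Results in IL-7 cells are therefore given with and without it, and the part of B cells and of activation in them was not tested.

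**Figure D1:**
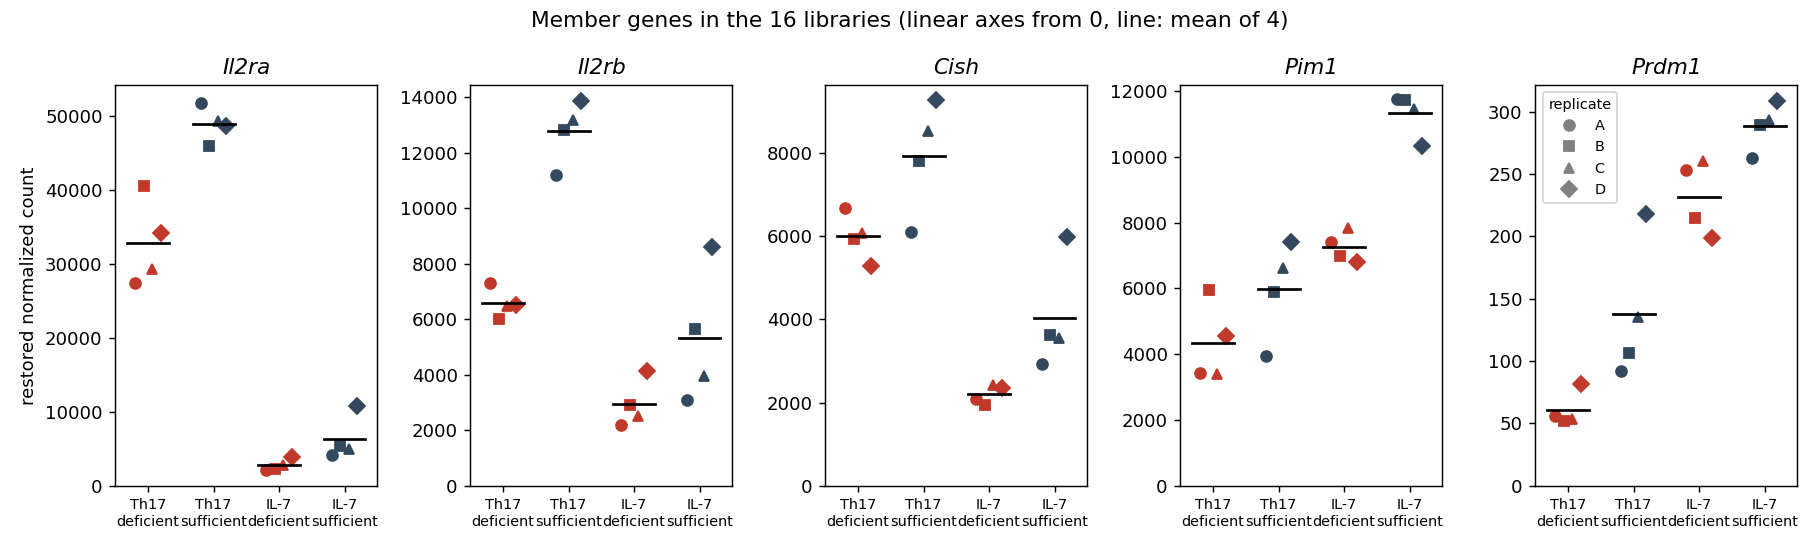
Restored normalized counts (linear axes from 0) of the 5 genes in each of the 16 libraries, by group, with the symbol giving the replicate, red for Sin3A deficient, dark blue for sufficient and a line at the mean of 4 libraries. Il2ra, Il2rb and Cish are highest in sufficient Th17 cells and lowest in deficient IL-7 cells, whereas Pim1 and Prdm1 are highest in sufficient IL-7 cells and lowest in deficient Th17 cells.

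Il2ra (ENSMUSG00000026770) encodes CD25, the alpha chain that gives the IL-2 receptor its high affinity. In replicates A, B, C and D, deficient Th17 cells held 27423, 40565, 29371 and 34274 normalized counts, against 51761, 46039.8, 49298 and 48697 in sufficient Th17 cells. Deficient IL-7 cells held 2113, 2208, 2776 and 3939.7, against 4229, 5448, 4956 and 10811 in sufficient IL-7 cells. The groups did not overlap at either stage, and library D was the highest of its group in both IL-7 groups. The order of the group means was sufficient Th17, deficient Th17, sufficient IL-7 and deficient IL-7, with no overlap between neighbours.

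In IL-7 cells Il2ra fell to 2759 ± 840 in deficient cells, against 6361 ± 3009 in sufficient cells (SD, n = 4 each). The log2 change was -1.15 ± 0.23 (limma adjusted p = 0.0108), and the deficient library was lower in 4 of 4 replicates. Without the sufficient library D it was -0.86 and still passed (limma adjusted p = 0.0129). With the next-best power of 10, which puts the sufficient library A at a lower value and has a posterior of 0.00569, it was -0.32 and missed the threshold (limma adjusted p = 0.851). With only the IL-7 libraries in the fit the same change missed the threshold (limma adjusted p = 0.0548). It also missed it without the deficient library B (-1.06, limma adjusted p = 0.0506), without the 4 libraries of replicate B (limma adjusted p = 0.165) and without those of replicate C (limma adjusted p = 0.0757).

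With polarization Il2ra rose in both genotypes. In deficient cells the Th17 libraries averaged 32908 ± 5862 and the IL-7 libraries 2759 ± 840, a log2 change of 3.60 ± 0.23 (limma adjusted p = 2.65e-10). In sufficient cells the Th17 libraries averaged 48949 ± 2349 and the IL-7 libraries 6361 ± 3009, a log2 change of 3.04 ± 0.23 (limma adjusted p = 2.88e-09). Every Th17 library exceeded every IL-7 library of its genotype. Both polarization comparisons use Th17 libraries that also entered the comparison by which the rows were named. This holds for every gene described here. A name required a lower value in deficient Th17 cells, which favours a fall in deficient and a rise in sufficient cells.

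Of the cell type lists, those of regulatory T cells, of activated T cells and of Th17 cells (values above) had summed levels in the same order of groups as Il2ra. The order of the Th17 groups was fixed by the naming of genes, for these lists as for Il2ra. The regulatory list had values for 5 of 9 markers, with none for Foxp3, which the table does not name. It summed to 5604 to 11050 in deficient and 24021 to 27812 in sufficient Th17 libraries, against 3683 to 4708 in deficient and 5552 to 8098 in sufficient IL-7 libraries. Its members did not all move alike: with polarization Ikzf2, a transcription factor of regulatory T cells, fell in deficient cells (log2 change -0.79 ± 0.18, limma adjusted p = 0.000784) and in sufficient cells (-0.44 ± 0.18, limma adjusted p = 0.0365). In IL-7 cells Ikzf2 was at -0.30 ± 0.18 between deficient and sufficient cells (limma adjusted p = 0.417), while Ctla4, Tnfrsf18 and Itgae fell; all 4 are also on the STAT5 list described below. The activation list had values for 4 of 6 markers and summed to 7411 to 8523 in deficient and 16100 to 32427 in sufficient Th17 libraries, against 842 to 1836 in deficient and 1294 to 4042 in sufficient IL-7 libraries. The part of regulatory, activated or Th17 cells in the Il2ra result was not tested.

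Il2rb (ENSMUSG00000068227) encodes CD122, the signalling beta chain shared by the receptors of IL-2 and IL-15. In replicates A, B, C and D, deficient Th17 cells held 7294, 6011, 6489.6 and 6526 normalized counts, against 11209.8, 12832, 13177 and 13863 in sufficient Th17 cells. Deficient IL-7 cells held 2180.0, 2906, 2521 and 4134, against 3099.9, 5653, 3963 and 8591 in sufficient IL-7 cells. The Th17 groups lay apart, while the IL-7 groups overlapped because the deficient library D exceeded the sufficient libraries A and C. The means of deficient Th17 and sufficient IL-7 cells, which are neighbours in the order of levels, differed 1.24-fold and their libraries overlapped as well.

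In IL-7 cells the level of Il2rb was 2935 ± 853 in deficient and 5327 ± 2421 in sufficient libraries (SD, n = 4 each). The log2 change of -0.79 ± 0.23 missed the threshold (limma adjusted p = 0.0643). Library by library the ratio of deficient to sufficient was 0.703, 0.514, 0.636 and 0.481, so each deficient library was below the sufficient library of its own replicate. With the replicate as a block the same change passed (limma adjusted p = 0.0201). Without the block it passed when the deficient library D (-0.97, limma adjusted p = 0.0238), the sufficient library A (-1.02, limma adjusted p = 0.0136) or all 4 libraries of replicate D (-0.71, limma adjusted p = 0.0320) were left out. Without the sufficient library D alone it was -0.53 (limma adjusted p = 0.150).

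Il2rb was higher after polarization in both genotypes. The log2 change was 1.20 ± 0.23 in deficient cells (limma adjusted p = 0.00015) and 1.37 ± 0.23 in sufficient cells (limma adjusted p = 4.31e-05). Every Th17 library of a genotype exceeded its 4 IL-7 libraries. Cd8a and Cd8b1 are markers of CD8 T cells, which can carry much CD122. They summed to 113 to 196 in deficient and 231 to 519 in sufficient Th17 libraries. In IL-7 libraries they summed to 351 to 538 in deficient and 430 to 638 in sufficient cells. The part of CD8 T cells in the Il2rb results was not tested.

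Cish (ENSMUSG00000032578) encodes CIS, a SOCS family protein that STAT5 induces and that in turn dampens cytokine signalling. The start of the gene is shown because it holds 2 copies of TTCNNNGAA, the palindrome that STAT factors bind, which reads the same on both strands. The RefSeq window of Cish (build GRCm38.p6) runs from 250 bases before the start of transcription to 50 bases after it. The first copy begins at the start itself, the copies do not overlap, and they are 2 bases apart in this 30-base stretch on the plus strand, chr9:107296654-107296683, with both copies in capitals.
Cish: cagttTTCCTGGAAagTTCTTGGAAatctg
Of 32851 such windows, 8.3% hold at least 1 copy and 0.457% hold 2 or more. The windows of Il2ra and Prdm1 and both windows of Pim1 hold no copy, which describes these windows alone. Among genes of the STAT5 list below that have values, 8 of 45 windows (17.8%) hold a copy, those of Bcl6, Cish, Il7r, Lta, Socs3, Tnfrsf18 and Tnfrsf9.

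In replicates A, B, C and D, deficient Th17 cells held 6675, 5924, 6075 and 5279.9 normalized counts of Cish, against 6085, 7802, 8524 and 9263 in sufficient Th17 cells. Deficient IL-7 cells held 2083, 1941, 2417 and 2352, against 2935, 3629, 3545 and 5966 in sufficient IL-7 cells. The Th17 groups overlapped through library A, where deficient cells were the higher, and the IL-7 groups did not overlap. The order of the means was that of Il2ra, but both Th17 groups overlapped, and so did deficient Th17 with sufficient IL-7 cells.

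Cish fell in deficient IL-7 cells, to 2198 ± 224 against 4019 ± 1334 in sufficient cells (SD, n = 4 each). The log2 change was -0.82 ± 0.17 (limma adjusted p = 0.0113), with the deficient library lower in 4 of 4 replicates. Without the sufficient library D it was -0.62 (limma adjusted p = 0.0140). The call was lost without the deficient library B (-0.77, limma adjusted p = 0.0513), without replicate B (limma adjusted p = 0.181) and without replicate C (limma adjusted p = 0.0746).

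Cish was higher after polarization, by a log2 change of 1.45 ± 0.17 in deficient cells (limma adjusted p = 4.49e-07). In sufficient cells the log2 change was 1.01 ± 0.17 (limma adjusted p = 3.2e-05). The Th17 libraries lay above the IL-7 libraries in both genotypes, except that the sufficient IL-7 library D came close to the lowest sufficient Th17 library, at 5966 against 6085.

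The reads of Cish are uncertain in their strand. In the GENCODE M21 annotation of GRCm38, exons of the antisense gene Gm17041 and of the pseudogene Gm17040 overlap exons of Cish on the opposite strand, and the strand setting of the authors' counting is not given in the sources used here. Gm17041 averaged 1583 ± 104 normalized counts in deficient and 2117 ± 406 in sufficient Th17 cells, against 586 ± 52.6 in deficient and 1036 ± 374 in sufficient IL-7 cells (SD, n = 4 each). It stood at 24.2% to 28.2% of the Cish count in every library, and reads of the 2 genes cannot be told apart here.

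Pim1 (ENSMUSG00000024014) encodes a serine/threonine kinase that supports survival and growth downstream of STAT factors. In replicates A, B, C and D, deficient Th17 cells held 3429, 5949, 3413 and 4559.9 normalized counts, against 3954, 5882, 6619.8 and 7416 in sufficient Th17 cells. Deficient IL-7 cells held 7406, 6985, 7844 and 6801, against 11768, 11721, 11461 and 10341 in sufficient IL-7 cells. The Th17 groups overlapped widely, and the IL-7 groups lay well apart with little spread, with library D among the lowest. Deficient IL-7 and sufficient Th17 cells, next to each other in the order of means, overlapped.

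Pim1 fell in deficient IL-7 cells, to 7259 ± 465 against 11323 ± 668 in sufficient cells (SD, n = 4 each). The log2 change was -0.64 ± 0.17 (limma adjusted p = 0.0452), and the ratios by replicate were 0.629, 0.596, 0.684 and 0.658. Leaving out 1 or 4 libraries moved it from -0.68 to -0.61, and it missed the threshold in 15 of these 20 fits. Without the sufficient library D it was -0.68 (limma adjusted p = 0.0552). In a fit of the IL-7 libraries alone the limma adjusted p was 0.00316.

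Unlike both receptor chains and Cish, Pim1 was lower after polarization in both genotypes. The log2 change was -0.78 ± 0.17 in deficient cells (limma adjusted p = 0.000548) and -0.96 ± 0.17 in sufficient cells (limma adjusted p = 7.66e-05). Each Th17 library lay below every IL-7 library of its genotype. An antisense gene, Gm26885, overlaps Pim1 exons in the same annotation and stood at 15.6% to 18.1% of the Pim1 count in deficient and 14.7% to 17.8% in sufficient Th17 libraries, against 10.0% to 11.9% in deficient and 9.62% to 10.6% in sufficient IL-7 libraries, so Pim1 shares the uncertainty of strand.

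Prdm1 (ENSMUSG00000038151) encodes Blimp-1, a transcriptional repressor of effector and regulatory T cells that IL-2 and STAT5 are known to induce. In replicates A, B, C and D, deficient Th17 cells held 56.2, 51.7, 53.7 and 81.8 normalized counts, against 91.9, 106, 136 and 218 in sufficient Th17 cells. Deficient IL-7 cells held 253, 215, 260 and 199, against 263, 289, 293 and 309 in sufficient IL-7 cells. The groups did not overlap at either stage, although the highest deficient and lowest sufficient IL-7 libraries, at 260 and 263, nearly met. The deficient IL-7 and sufficient Th17 groups, neighbours in the order of means, overlapped.

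In IL-7 cells the level of Prdm1 was 232 ± 29.7 in deficient and 288 ± 19.1 in sufficient libraries (SD, n = 4 each). The log2 change of -0.32 ± 0.22 missed the threshold (limma adjusted p = 0.473), though the deficient library was lower in 4 of 4 replicates. Without the sufficient library D it was -0.29 (limma adjusted p = 0.632). Prdm1 was lower after polarization, with a log2 change of -1.93 ± 0.22 in deficient cells (limma adjusted p = 2.85e-07) and of -1.14 ± 0.22 in sufficient cells (limma adjusted p = 0.000134). Each Th17 library was below every IL-7 library of its genotype. As for Il2ra, the Th17 libraries also entered the comparison that named the rows, which favours a fall in deficient cells.

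Read together for IL-7 cells, 3 of the 5 genes fell (Il2ra, Cish and Pim1) and none rose, while among all rows tested 2.31% fell and 1.98% rose (4.29% in either direction). Among rows that carry a name, which are those lower in deficient Th17 cells, 3.43% fell. The 5 genes were chosen with earlier results of these data known, so these shares set no chance level for them. In 4 of the 5 genes, all but Il2rb, the 4 deficient IL-7 libraries lay below the 4 sufficient ones. The share of all rows that separate in this way was not computed, so this count does not set the genes apart. Prdm1 is among the 4, though its groups nearly met and its change missed the threshold (limma adjusted p = 0.473). With the replicate block 4 of the 5 fell, Il2rb being added, and called rows numbered 952 in place of 603 of 14065. The limma adjusted p with the block was 0.00329 for Il2ra, 0.00639 for Cish and 0.0335 for Pim1. The fits with libraries left out had no block. Without replicate B or replicate C, or without the deficient library B, 0 of the 5 passed, and the called rows numbered 25, 85 and 204. Called rows numbered 281 without the deficient library A, 341 without the deficient library C and 321 without the sufficient library B. Without the sufficient library D 2 of the 5 passed, Il2ra and Cish, and the called rows numbered 406.

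**Figure D2:**
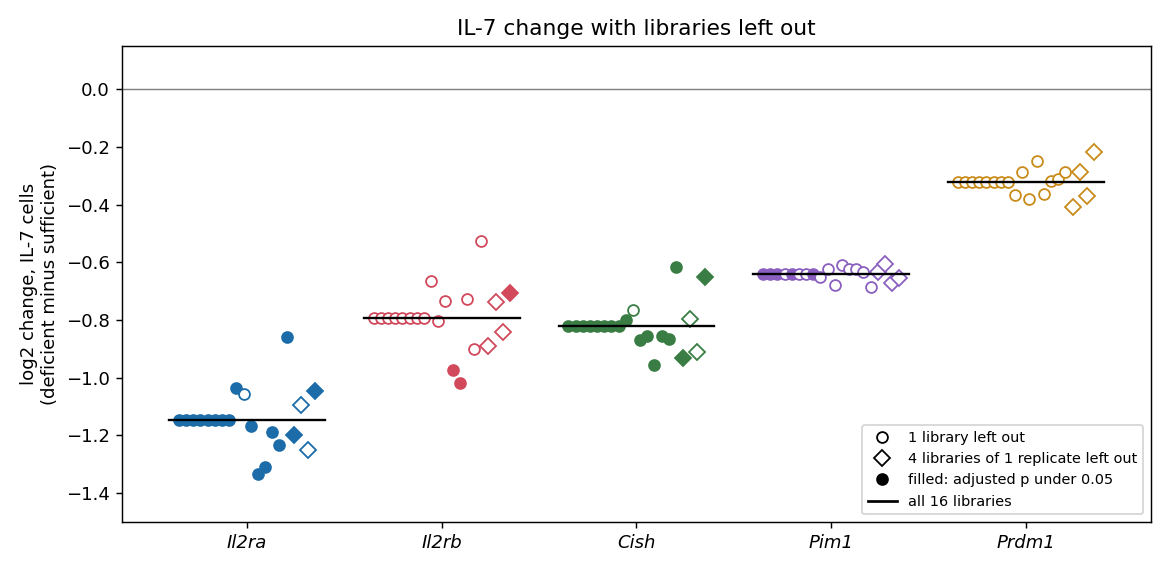
Log2 change between deficient and sufficient IL-7 cells for each gene when 1 library (circles) or the 4 libraries of 1 replicate (diamonds) were left out, filled where the limma adjusted p stayed under 0.05, with a line at the value from all 16 libraries. Every point is below 0; those of Il2rb reach up to -0.53, and those of Pim1 stay between -0.68 and -0.61.

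With polarization 5 of 5 genes passed in deficient cells and 5 of 5 in sufficient cells, where 78.2% and 77.6% of all rows did. In deficient cells 38.2% of all rows rose and 40% fell, and in sufficient cells 37.6% rose and 39.9% fell. Among named rows 29.1% rose and 49.1% fell in deficient cells, and 42.2% rose and 34.9% fell in sufficient cells. Naming favoured low values in deficient and high values in sufficient Th17 libraries, which the polarization comparisons share. In both genotypes Il2ra, Il2rb and Cish rose and Pim1 and Prdm1 fell. The counts of genes that passed are near the share of all rows, so passing does not set these genes apart; the sizes range from the 3.60 of Il2ra to the -1.93 of Prdm1, both in deficient cells. The median change over all rows was -0.03 in deficient and -0.03 in sufficient cells.

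**Figure D3:**
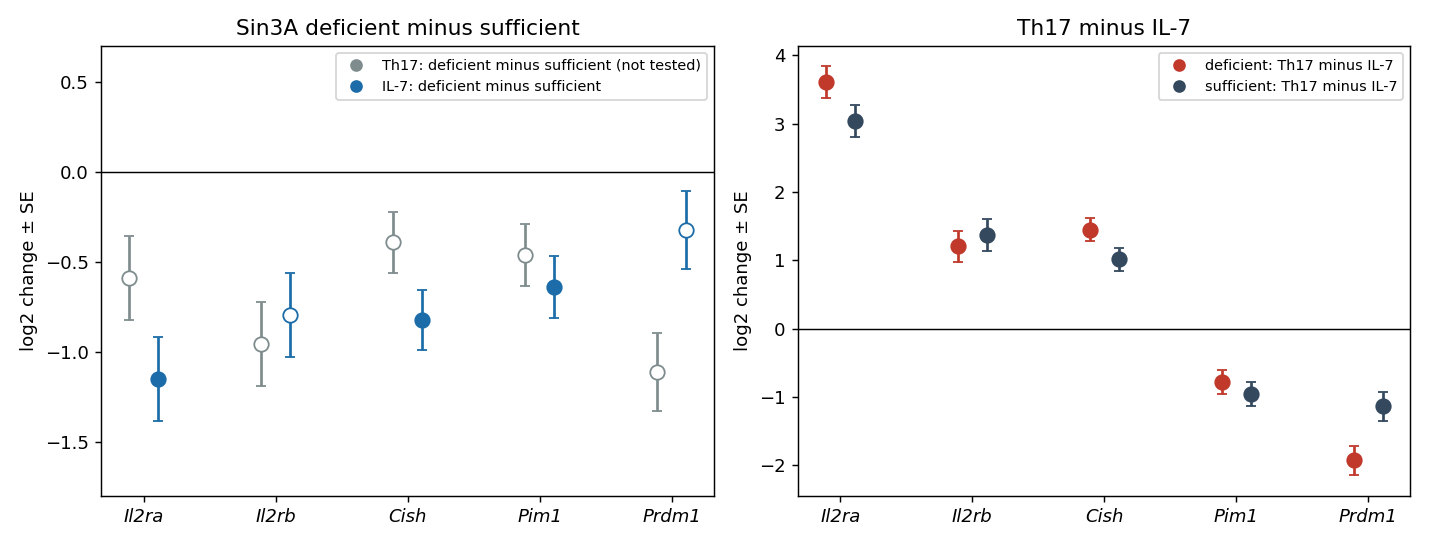
Log2 change ± SE of the 5 genes, for deficient minus sufficient cells (left; grey for Th17 cells, not tested, and blue for IL-7 cells) and for Th17 minus IL-7 cells (right; red for deficient, dark blue for sufficient), filled where the limma adjusted p was under 0.05. All deletion changes are below 0, while polarization changes are above 0 for Il2ra, Il2rb and Cish and below 0 for Pim1 and Prdm1.

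In Th17 cells, where being lower was a condition of choice, the log2 change between deficient and sufficient cells was -0.59 for Il2ra, -0.96 for Il2rb, -0.39 for Cish, -0.46 for Pim1 and -1.11 for Prdm1, with SEs of 0.17 to 0.23. The authors' deposited table gives -0.57, -0.96, -0.40, -0.46 and -1.18 in that order of genes. Of all rows, 28.6% were called lower in this comparison, and of named rows 54.1%. The deficient library was lower in 4 of 4 replicates for Il2ra, Il2rb and Prdm1 and in 3 of 4 for Cish and Pim1. Cish was 1.10 times higher in the deficient library A, and Pim1 was 1.01 times higher in the deficient library B.

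Set side by side, the deletion change of Il2ra was -0.59 in Th17 and -1.15 in IL-7 cells, a difference of 0.56 ± 0.33. For Cish the difference, 0.43 ± 0.24, had the same sign, while for Prdm1 it was -0.79 ± 0.31. Il2rb and Pim1 differed by less than their SEs, at -0.16 and 0.18. These differences contain the Th17 comparison that named the rows, and are given with no test.

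**Figure D4:**
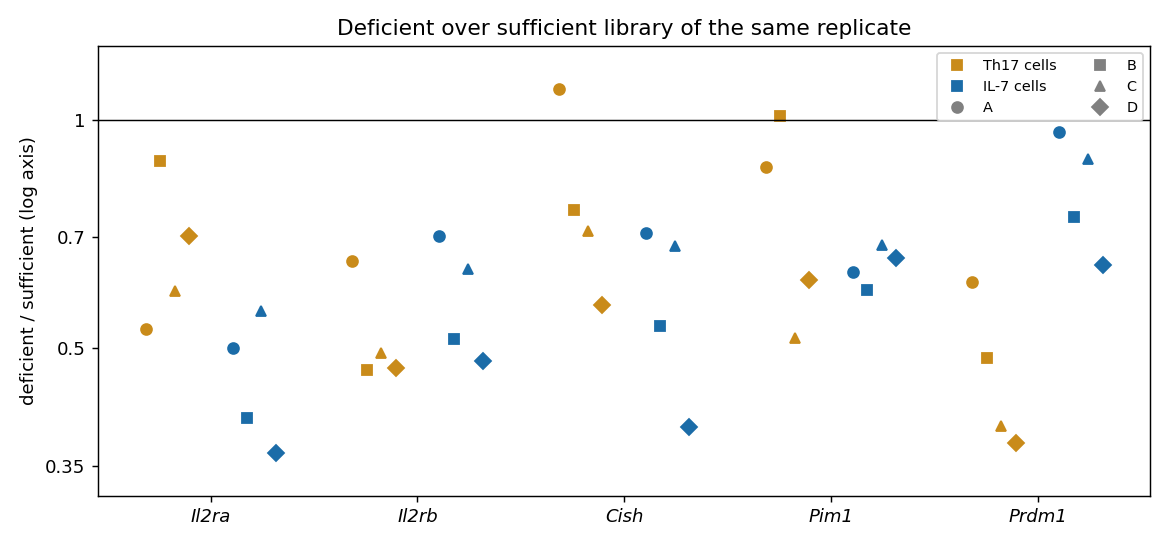
Ratio of the deficient to the sufficient library of the same replicate (log axis) for each gene, in Th17 cells (ochre) and IL-7 cells (blue), with the symbol giving the replicate. In IL-7 cells every ratio is below 1; in Th17 cells Cish in library A and Pim1 in library B are above 1, and the Prdm1 ratios are lower than in IL-7 cells for each replicate.

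The wider pathway was read from a list of 64 genes of IL-2, IL-7 and STAT5 signalling, of which the authors' table names 48 and 42 had values, all of them lower in deficient Th17 cells by the authors' fold change. In IL-7 cells 12 of the 42 fell and 0 rose, and 9 of the 37 that are not among the 5 genes fell, where 2.31% of all rows and 3.43% of named rows fell. The median log2 change of the 42 was -0.54, against -0.05 over all named rows and -0.00028 over all rows. In 37 of the 42 the change was below 0. The list was drawn up with earlier results of these data known, so its counts are a description. Without the sufficient library D the median was -0.36 and 7 fell. With the replicate block 19 fell, where 3.89% of all rows and 5.77% of named rows did. With the block in a fit of the IL-7 libraries alone, an alternative chosen after seeing the data, 32 of 41 fell, where 10.2% of all rows and 14.9% of named rows did. The number that fell was 3 without the deficient library B, 5 without the deficient library A, 8 without the deficient library C, 7 without the sufficient library B, and 0 without replicate B or without replicate C.

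By role, 3 of 6 receptor chains fell in IL-7 cells. Beside Il2ra these were Il2rg, the common gamma chain (log2 change -0.43 ± 0.08, limma adjusted p = 0.00709), and Il4ra, the alpha chain of the IL-4 receptor (-0.79 ± 0.19, limma adjusted p = 0.0259). Il7r, the alpha chain of the receptor for the cytokine in these cultures, was at 0.07 ± 0.22 (limma adjusted p = 0.914). Of kinases and factors 0 of 3 passed, with Jak3, the kinase bound by the common gamma chain, at -0.66 ± 0.20 (limma adjusted p = 0.0780), and Stat5b, one of the STAT5 genes, at -0.06 ± 0.08. Of the 7 feedback genes and phosphatases Cish alone passed, and Socs1, an inhibitor of JAK kinases, was at -0.82 ± 0.24 (limma adjusted p = 0.0613).

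Among 7 targets in survival, growth and cycle Pim1 alone passed, and its relatives Pim2 and Pim3 were at -0.41 and 0.15 with SEs of 0.21 and 0.19. Of 17 targets in differentiation and effector function 7 fell: Osm, Lta, Tnfrsf18, Icos, Ctla4, Itgae and Gadd45g. Itgae, the integrin CD103, had the lowest value of the 7 at -1.91 ± 0.35 (limma adjusted p = 0.00695). Icos, a costimulatory receptor, was at -0.92 ± 0.19 (limma adjusted p = 0.0128). Both cytokine genes with values, Il9 and Il21, were below 0 without passing.

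**Figure D5:**
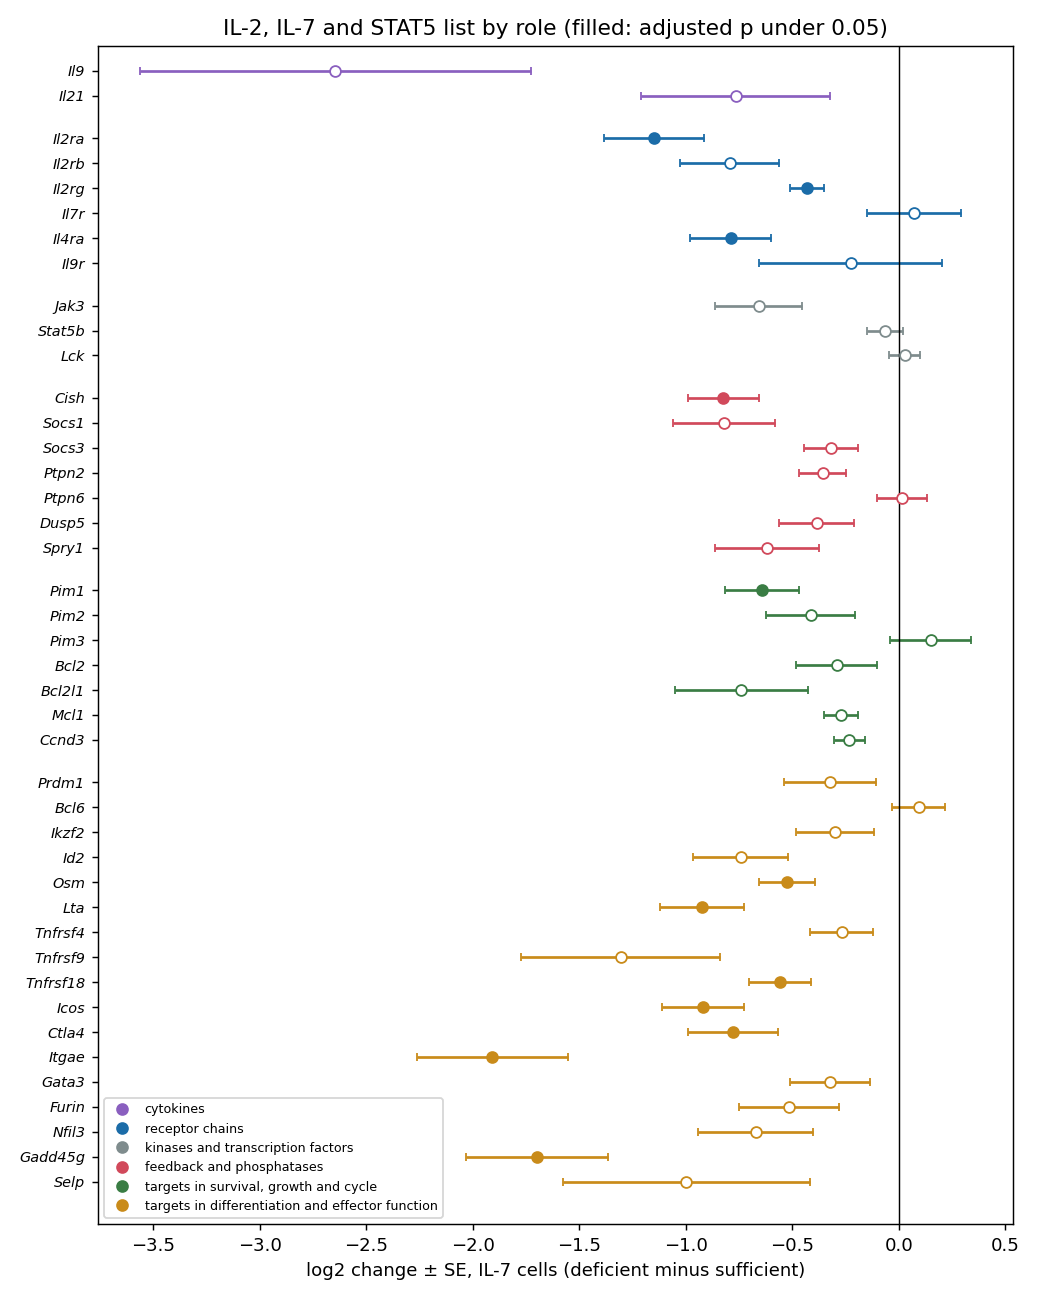
Log2 change ± SE between deficient and sufficient IL-7 cells for the 42 genes of the list with values, coloured by role and filled where the limma adjusted p was under 0.05. The 12 filled points lie below 0, and 5 genes, among them Il7r and Pim3, lie above 0.

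With polarization 23 of the 42 list genes rose and 14 fell in deficient cells, and 26 rose and 14 fell in sufficient cells. In deficient cells 38.2% of all rows and 29.1% of named rows rose, and 40% of all rows and 49.1% of named rows fell. In sufficient cells 37.6% of all rows and 42.2% of named rows rose, and 39.9% of all rows and 34.9% of named rows fell. For the list too, naming favoured low values in deficient and high values in sufficient Th17 libraries. The median log2 change of the list was 0.56 in deficient and 0.79 in sufficient cells, against -0.31 in deficient and 0.10 in sufficient cells over named rows. The receptor chains divided, since Il2ra and Il2rb rose in both genotypes while Il2rg, Il7r, Il4ra and Il9r fell in both. Il7r changed by -1.58 ± 0.22 in deficient cells (limma adjusted p = 4.28e-06) and by -1.32 ± 0.22 in sufficient cells (limma adjusted p = 3.6e-05). The Pim kinases divided too: Pim3 rose by 0.78 ± 0.19 in deficient (limma adjusted p = 0.00124) and by 1.42 ± 0.19 in sufficient cells (limma adjusted p = 3.15e-06), opposite to Pim1.

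The 3 named genes whose pattern over the 16 libraries was most like each member were found by Pearson correlation of log2 values among 4763 named rows with a mean of at least 100. The points share the groups and the size factors of 16 libraries, so these values are a description. Il2ra was most like Aurkb, a mitotic kinase (r = 0.994), Icos (0.994) and Fancd2, of the Fanconi anaemia DNA repair pathway (0.993). Il2rb was most like Lgals3 (0.979), Pdlim7 (0.968) and Pcgf2 (0.968). Cish was most like its overlapping genes Gm17041 (0.997) and Gm17040, followed by the AP-1 gene Jun (0.982).

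Pim1 was most like Osm, the cytokine oncostatin M that STAT5 is known to induce (r = 0.957), Ncoa3 (0.944) and Dusp5. Prdm1 was most like H2-Q7, a class Ib MHC gene that shares sequence with its relatives (0.974), Pafah1b1 (0.974) and Rcn3 (0.969).

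Among the 5 genes themselves, levels over the 16 libraries correlated at 0.901 between Il2ra and Il2rb, 0.948 between Il2ra and Cish and 0.940 between Il2rb and Cish, and at 0.881 between Pim1 and Prdm1. Across these 2 sets the values ran from -0.714 (Il2ra and Prdm1) to -0.353 (Il2rb and Pim1). Deviations from the group means, which leave out the differences between groups, correlated at 0.784 for Il2ra and Il2rb, 0.652 for Il2ra and Cish and 0.764 for Il2rb and Cish. Without the sufficient IL-7 library D these were 0.558, 0.196 and 0.512 over 15 libraries. The value for Pim1 and Prdm1 was 0.534 with that library and 0.559 without it.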

How the data were processed

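The submitters' processing notes name Trim Galore 0.4.4, STAR 2.6, featureCounts, edgeR, DESeq2 and the build NCBIM37, and no settings. The authors deposited 1 table. Per the file headers it holds a mean signal, a log2 fold change and its standard error for 8552 genes, and 16 columns (0 further ones were left unused), whose values are digits of counts over size factors with the decimal point lost.

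Over all 16 libraries together 99.993% of nonzero digits were a whole multiple of the fixed step of their library, the worth of 1 read. Powers of 10 were chosen so that the replicates of a group lay as close as their noise allows; 9.04% of values were raised. Rows with a posterior of at least 0.95 in every group counted as settled (14149 of 17850); in named rows the join settled the Th17 groups. A term for unequal noise of libraries was added after Il2ra had stayed unsettled without it. All 5 genes were settled, the lowest posteriors being 0.993 for Il2ra and 0.990 for Il2rb. Symbols were joined where reads gave the authors' log2 fold change within 1e-06 and the next row was 20 times farther: 8067 genes, and 6 of 1000 decoys. On simulated data of 3000 rows, 99.8% of settled rows were exact. Of rows changed 2-fold in IL-7 cells 93 of 98 were called, and 10 of 2625 unchanged rows. The simulated rows were modelled on settled rows alone, with equal noise in all libraries and no pairing, and 94.7% were settled, against 79.3% in the data. These shares therefore need not hold for genes as variable as Il2ra and Il2rb in sufficient IL-7 cells.

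limma 3.58.1 was run with a trend on log2(value + 1), 4 group means and all 16 libraries, over 14065 settled rows with a group mean of at least 5; p-values were adjusted over all rows by Benjamini-Hochberg, and 0.05 was the threshold. The change of a low gene is understated on this scale. Deviations of same-numbered deficient and sufficient IL-7 libraries correlated at 0.172 to 0.628 in every pair, so the numbers were taken to pair these samples. In the other comparisons at least 1 pair was under 0.1, though the same number was the best match for 3 or 4 of 4 libraries. The main fit has no block all the same, and the block is an alternative. Alternatives were 2 pseudocounts, other scaling, filters, a replicate block and left-out libraries. The 5 genes, the list and the markers were chosen with earlier results of these data known. Named genes are the 5 genes, list genes beside their counts, and 3 genes by likeness. Coordinates of the promoter windows are those of RefSeq (GRCm38.p6), a build other than that of the reads.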

Additional observations from a re-analysis of the deposited data

Results flagged for a closer look

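Prdm1 in deficient Th17 cells was flagged because its highest library, replicate D at 81.8 normalized counts, lay far from the other 3, at 56.2, 51.7 and 53.7. The gap was 0.849 of the range of the group, above the critical value of Dixon's test for 4 samples. It was 1 of 20 groups of 4 libraries examined, and chance flags about 1 in 20. Replicate D was also the highest of the sufficient Th17 cells, at 218.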

How the results depend on the processing

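All 5 genes kept their direction in every comparison under the 32 alternatives run (30 for the difference between stages), with exceptions in that difference alone: the next-best powers of 10 gave -0.27 for Il2ra and 0.67 for Il2rb, and the lowest value for Pim1 was -0.01. With next-best powers the IL-7 change of Il2ra was -0.32 and lost its call (limma adjusted p = 0.851), and that of Il2rb was -1.62 (limma adjusted p = 0.126). In the polarization comparisons all 5 calls held under all 32. In IL-7 cells 603 rows were called, 952 with the replicate block and 2582 with the block in a fit of the IL-7 libraries alone, and 4 genes were called with either block; the cause was not tested. Leaving out libraries gave 25 to 736 called rows and 0 to 3 genes called in IL-7 cells, and 3149 to 5767 called rows for the difference between stages. Over the 5 genes the block changed no call but that of Il2rb. The block within 1 comparison, limma voom and the next-best powers were chosen after seeing the data. The planned edgeR and DESeq2 fits were not run, because the deposited values are not counts.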
